A study of Homo sapiens with 6 samples.

Results

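The genes described here encode the enzymes that add methyl groups to histone lysines and the enzymes that take them off, together with proteins that share their names. They were chosen by name. Protein coding genes were taken if the symbol starts with KDM, KMT, SETD, EHMT or SUV39H, or is EZH1 or EZH2, without KDM3A and without copies on the Y chromosome. This gave 43 genes among 19951 protein coding genes and 58735 genes in the whole table. The rule uses names and no measured value, but it was set with earlier results of these data known. They were compared in RNA-seq libraries of T84, a line of human colorectal cancer cells long kept in culture. The 3 shACSL4 libraries came from cells with a short hairpin RNA against ACSL4, which joins polyunsaturated fatty acids to coenzyme A, and their genotype is labelled as an Acsl4 knockdown. The 3 shControl libraries came from cells with a control hairpin, labelled WT. Both groups were T84 cells under 1 growth protocol, in DMEM/F12 medium with serum and antibiotics. The sources used here do not give the hairpin sequences, how many hairpins were used, or whether the cells were a clone or a pool. The series title concerns immunosuppression by ACSL4 in colorectal tumours, and its design text calls the cells knockouts although hairpins are named for each sample.

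Histone methylation marks chromatin by the lysine that carries it. Methylation of lysine 4 of histone H3 (H3K4) sits at active promoters and enhancers, H3K36 methylation along transcribed genes, and H3K27 and H3K9 methylation in repressed chromatin. Methyltransferases take the methyl group from S-adenosylmethionine. Demethylases of the KDM1 type use FAD, and those with a Jumonji (JmjC) domain use iron, oxygen and 2-oxoglutarate. Several of these genes, among them KMT2C, KMT2D, SETD2 and KDM6A, are known as mutated in human cancers, and EZH2 is a drug target.

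The libraries held 14740383 to 17620630 counts, and 15694 genes had enough counts to be tested, 41 of the 43 among them. KDM4E and KDM4F had no read in any library and were not tested. ACSL4 itself had 10.3, 9.12 and 11.1 CPM (counts relative to the scaled library size) in shACSL4 replicates 1, 2 and 3, against 75.5, 72.2 and 72.0 CPM in shControl replicates 1, 2 and 3. Its log2 fold change was -2.85 (SE 0.10, edgeR adjusted p = 3.57e-12), and 13.9% remained. All 12 markers of colorectal epithelium that were looked at stood at 1 CPM or more, with a summed level of 8846 to 10119 CPM in shACSL4 libraries and 7848 to 9013 CPM in shControl libraries. Of these 12, 6 were called higher (all genes 24.0%) and 2 lower (all genes 23.1%). Of 12 markers of leukocytes, endothelium and fibroblasts, 2 reached 1 CPM (LYZ and COL1A1) and CD3E was at 0. The summed level was 5.53 to 7.97 CPM in shACSL4 libraries and 18.4 to 30.3 CPM in shControl libraries. Most of each sum was LYZ alone, which averaged 4.48 CPM in shACSL4 and 20.8 CPM in shControl libraries. LYZ and COL1A1 were both called lower (all genes 23.1%), and the other 10 were not tested. Among these, CDH5 averaged 0.426 CPM in shACSL4 and 0.0826 CPM in shControl libraries. The part of these marker differences in the results below was not tested.

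One control library stood apart for genes with a long deposited length. Protein coding genes were split into 5 bins of equal number by the deposited gene length. In shControl replicate 2 the median deviation from each gene's mean over the 6 libraries ran from 0.12 (log2) in the bin of the shortest genes to -0.13 in the longest. The same measure ran from -0.07 to 0.08 in shACSL4 replicate 1, from -0.06 to 0.07 in shACSL4 replicate 2 and from 0.05 to -0.04 in shACSL4 replicate 3. The 41 genes are long. Their median length was 7312 bases, against 5094 for all protein coding genes tested, and 19 of them lay in the bin of the longest genes. In shControl replicate 2, 31 of the 41 were below the mean of the other shControl libraries and 11 were below 0.8 of it, 7 of these 11 among the called genes. The ratio ran from 0.46 to 1.17 with a median of 0.876. Across the 41 genes, gene length had a Spearman correlation of -0.53 with this ratio and of 0.02 with the log2 fold change between the groups, a description over genes that share the same libraries. For this reason counts over the 41 genes, over their roles and over partner lists are also given without that library where they differ.

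**Figure D1:**
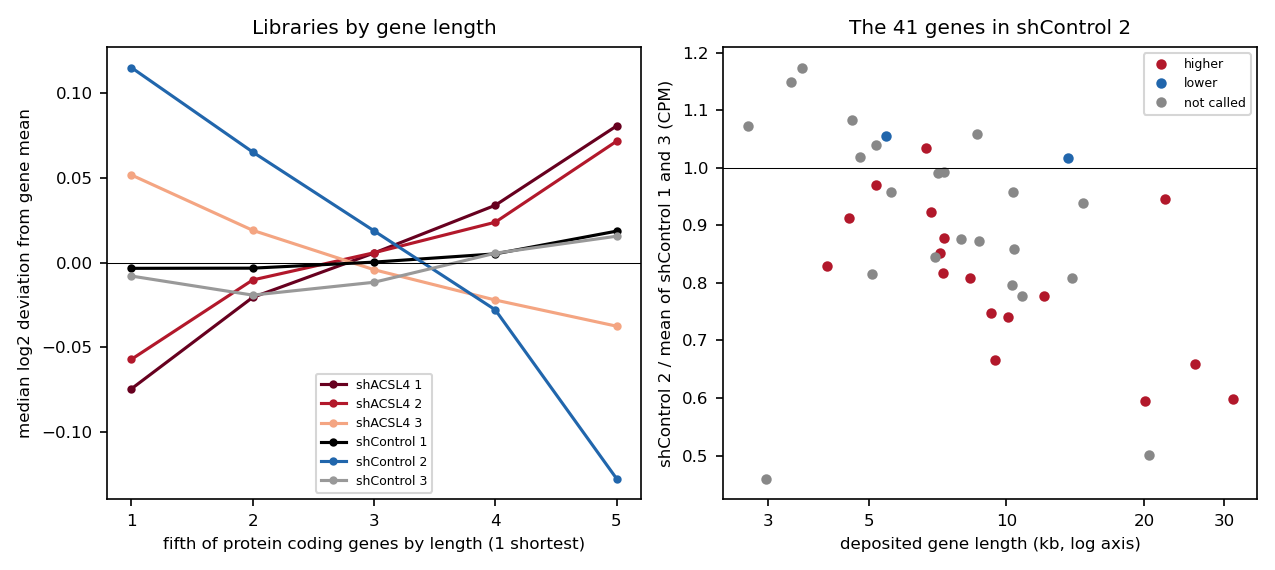
Left, median log2 deviation from the gene mean (y axis) in each of the 6 libraries for 5 bins of protein coding genes by length (x axis, 1 shortest), with 1 line per library. Right, CPM in shControl replicate 2 over the mean of shControl replicates 1 and 3 (y axis) against the deposited gene length in kilobases (x axis, log scale) for the 41 genes, coloured by call. The line of shControl replicate 2 falls from 0.12 to -0.13, and 31 of the 41 points lie below 1.

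In shACSL4 cells 17 of the 41 genes rose and 2 fell. The rises were in enzymes for H3K4 (SETD1A, SETD1B, KMT2A, KMT2C, KDM5A, KDM5B), H3K27 (EZH2, KDM6A, KDM6B, KDM7A), H3K9 (EHMT1, SETDB2, KDM4A) and H3K36 (SETD2), and in SETD4, KMT2E and KDM8. The falls were in KDM1A, which removes H3K4 methylation, and KDM2B, which removes H3K36 methylation. In bulk RNA, less RNA per cell and fewer cells with that RNA cannot be told apart. In all 19 cases the change was under 2-fold, from a log2 fold change of -0.34 to 0.89. A gene was called at an adjusted p under 0.05 in edgeR's quasi-likelihood test over all 15694 genes. The share called was 46.3% of the 41 genes, against 47.2% of all genes tested and 51.7% of protein coding genes. By direction, 41.5% of the 41 were higher and 4.88% lower, against 24.0% higher and 23.1% lower over all genes, and 25.9% higher and 25.8% lower over protein coding genes. The median log2 fold change of the 41 was 0.23, against 0.01 for all genes tested, and 29 of the 41 (70.7%) were above 0, against 50.9% of all genes. In the bin of the longest protein coding genes the median was 0.07, and 0.24 for the 19 of the 41 that lay in it. The part of gene length in these values was not tested.

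The values of the groups did not overlap for 22 of the 41 genes (53.7%), against 55.1% of all genes. All shACSL4 libraries were above all shControl libraries for 19 of them (46.3%, all genes 28.3%) and below for 3 (7.32%, all genes 26.8%). Without shControl replicate 2, 13 of the 41 were higher (31.7%, all genes 22.7%) and 3 lower (7.32%, all genes 22.3%), with a median of 0.18, so that 39.0% of the 41 and 45.0% of all genes were called. KDM4A, KDM5A, KDM6B and KMT2E were no longer called without it, and SETD5 was then called lower (log2 fold change -0.25, edgeR adjusted p = 0.0382). Among the 6 fits that left out a library, the smallest number called higher, 11, came without shACSL4 replicate 2 (3121 of all genes higher). Only 1 was called lower without shACSL4 replicate 1 (3102 of all genes lower), without shACSL4 replicate 3 (3463) and without shControl replicate 1 (3236). Called in each of the 6 fits that left out a library were SETD1B, KMT2A, KDM5B, KDM6A, SETD2, KDM7A, SETD1A, EZH2 and KDM1A, 9 of the 19. With library size alone as scaling, the median of all genes shifted by 0.12 and calls over all genes split into 4878 higher and 2561 lower, against 3769 and 3631. The 41 genes then had 22 higher and 1 lower, and their median stood 0.21 above that of all genes, against 0.22 with the scaling used here. Against a fold of 1.2, 7 were higher (17.1%, all genes 15.6%) and 0 lower (all genes 14.1%, and 0 at an unadjusted p under 0.05). The 7 were SETD1B, KMT2A, KDM6A, SETD1A, SETD2, KDM5B and KDM8.

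**Figure D2:**
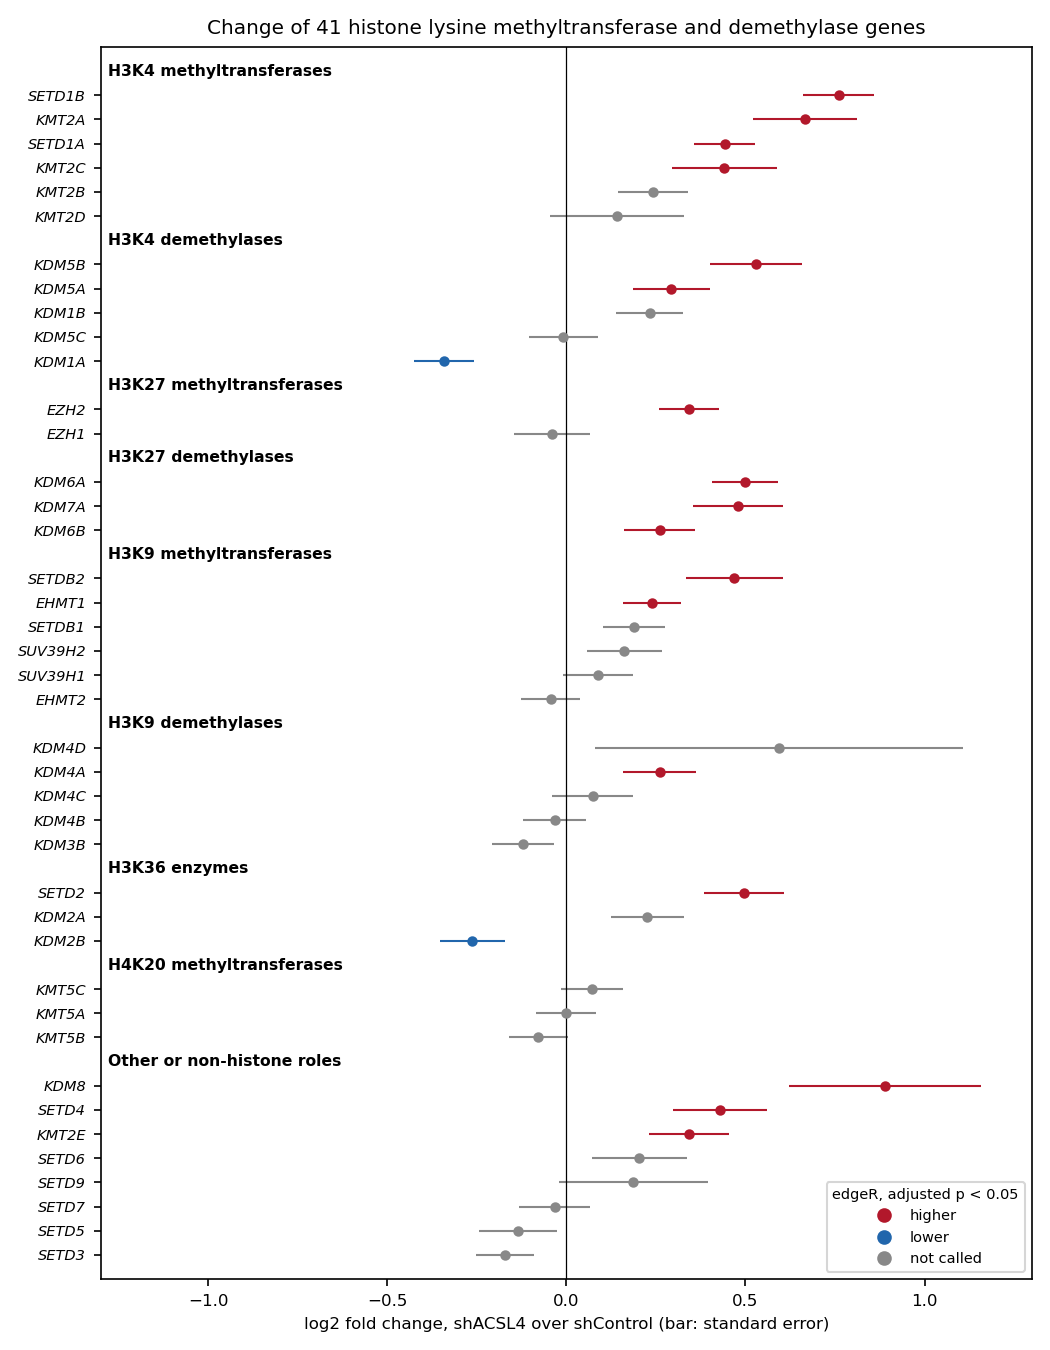
Log2 fold change, shACSL4 over shControl (x axis, bars are the standard error), for each of the 41 genes tested (rows, grouped by the residue the enzyme acts on), coloured by call. Points to the right of 0 outnumber those to the left, 29 against 12, and the only called points to the left are KDM1A and KDM2B.

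RefSeq promoter sequences (GRCh38.p14) were found for 41 of the 43 genes, KDM4F among them, and not for SETD1B and KDM4E. The stretch of 250 bases before the start was searched on both strands for GGGCGG (the GC box bound by SP1 factors), for CCAAT (bound by NF-Y), ACGTG (the core of hypoxia response and E-box elements), TATAAA (known from core promoters) and TTCCCGC (bound by E2F factors). None of these words contains another. Below are 3 genes that were higher (SETD1A, KMT2A and KDM6A) and 1 that was lower (KDM1A), each 5′ to 3′ on the gene's strand. Their share of G and C ran from 64% (KDM1A) to 78.4% (KMT2A). KDM2B, the other gene that was lower, is not shown and had 54% G and C and 13 CpG. Capitals mark GGGCGG as well as CCAAT and also ACGTG on either strand, and neighbouring matches run together.
SETD1A (chr16:30957504-30957753, plus strand): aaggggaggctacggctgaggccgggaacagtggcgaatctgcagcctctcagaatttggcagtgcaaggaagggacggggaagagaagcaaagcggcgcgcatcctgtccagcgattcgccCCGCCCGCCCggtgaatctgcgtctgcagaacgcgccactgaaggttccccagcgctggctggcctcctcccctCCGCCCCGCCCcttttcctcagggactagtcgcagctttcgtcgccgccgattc
KMT2A (chr11:118436242-118436491, plus strand): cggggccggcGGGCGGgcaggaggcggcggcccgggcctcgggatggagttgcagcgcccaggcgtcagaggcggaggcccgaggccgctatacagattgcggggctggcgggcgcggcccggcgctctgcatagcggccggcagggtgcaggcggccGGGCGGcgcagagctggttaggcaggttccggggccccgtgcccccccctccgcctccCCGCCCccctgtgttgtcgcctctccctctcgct
KDM6A (chrX:44872938-44873187, plus strand): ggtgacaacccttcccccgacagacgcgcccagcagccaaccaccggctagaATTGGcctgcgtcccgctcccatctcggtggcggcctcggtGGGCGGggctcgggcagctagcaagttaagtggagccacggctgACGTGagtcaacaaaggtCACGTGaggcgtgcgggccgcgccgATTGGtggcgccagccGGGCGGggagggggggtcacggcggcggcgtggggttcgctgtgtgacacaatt
KDM1A (chr1:23019218-23019467, plus strand): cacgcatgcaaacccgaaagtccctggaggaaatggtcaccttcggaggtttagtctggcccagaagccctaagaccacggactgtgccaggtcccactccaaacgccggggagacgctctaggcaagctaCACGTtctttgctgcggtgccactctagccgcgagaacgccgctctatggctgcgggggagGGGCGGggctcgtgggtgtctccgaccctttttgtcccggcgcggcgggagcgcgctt

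GGGCGG was in 30 of the 41 windows (73.2%), against 42.6% of all 35116 promoters and 54.4% of the 21021 promoters of protein coding genes. SETD1A held 4 matches, KMT2A 3, KDM6A 2 and KDM1A 1. CCAAT was in 13 windows (31.7%, all promoters 32.0%) and ACGTG in 9 (22.0%, all promoters 18.5%), and KDM6A held both. TTCCCGC was in 1 window (2.44%, all promoters 5.52%), that of KDM1B, and TATAAA in 0 (all promoters 10.7%). The windows held a median of 25 CpG and 66.8% G and C, against 17 and 62.0% for protein coding genes. Of the 16 genes called higher with a window, 14 held GGGCGG, against 30 of all 41 windows. Of the 2 called lower, KDM1A held it and KDM2B did not. A link between this word and the calls was not tested. A match is a run of letters in this window and says nothing of binding.

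The H3K4 methyltransferases rose in 4 of 6 cases (all genes 24.0%). All 6 fold changes were above 0 (all genes 50.9%), 5 of 6 without shControl replicate 2, and 5 of 6 relative to neighbouring genes. SETD1A and SETD1B, the catalytic subunits of the SET1 complexes that carry out most H3K4 trimethylation, were both higher. SETD1B (chromosome 12, 121804180 to 121832584, GRCh38) had 139, 143 and 128 CPM in shACSL4 replicates 1, 2 and 3, against 91.0, 69.7 and 81.2 CPM in shControl replicates 1, 2 and 3. The groups lay well apart, at 137 ± 7.95 CPM in shACSL4 and 80.6 ± 10.7 CPM in shControl libraries (SD, n = 3 each), a log2 fold change of 0.76 (SE 0.10, edgeR adjusted p = 9.76e-06), the smallest adjusted p of the 41 genes. SETD1A had 91.6, 103 and 95.3 CPM in shACSL4 libraries and 72.6, 67.5 and 73.6 CPM in shControl libraries, without overlap (log2 fold change 0.44, SE 0.09, edgeR adjusted p = 0.000448). For both genes shControl replicate 2 was the lowest library.

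KMT2A, also known as MLL1, binds menin and keeps HOX genes active. It had 209.5, 208 and 178 CPM in shACSL4 libraries, against 143, 86.6 and 146 CPM in shControl libraries. Every shACSL4 library was above every shControl library, and shControl replicate 2 was at 0.599 of the mean of the other controls. The log2 fold change was 0.67 (SE 0.15, edgeR adjusted p = 0.00122), and it was 0.46 without shControl replicate 2, where the call held. KMT2B, the close relative of KMT2A, had 149.8, 158 and 143 CPM in shACSL4 libraries and 139, 109 and 134 CPM in shControl libraries. These groups did not overlap either, but the log2 fold change of 0.24 missed the threshold (SE 0.10, edgeR adjusted p = 0.0502). It was 0.14 without shControl replicate 2, and KMT2B passed with library size alone (adjusted p = 0.00845), limma-voom (0.0434), the filter for a mean of 50 counts or more (0.0410) and the replicate block (0.0482), and also without shACSL4 replicate 3 (0.0457) or shControl replicate 1 (0.0415).

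KMT2C and KMT2D, also known as MLL3 and MLL4, place H3K4 monomethylation at enhancers. KMT2C had 129, 128 and 109.8 CPM in shACSL4 libraries, against 107, 61.9 and 102 CPM in shControl libraries (log2 fold change 0.44, SE 0.15, edgeR adjusted p = 0.0199). The groups did not overlap, and shControl replicate 2 lay far below the other controls. Without that library the log2 fold change was 0.23, and the call held. The call ended without shACSL4 replicate 1 (adjusted p = 0.0652) and without shACSL4 replicate 2 (adjusted p = 0.0662), and DESeq2 gave an adjusted p of 0.152. KMT2C has near-identical partial copies in the genome, so its counts are uncertain. KMT2D had 421, 426 and 316 CPM in shACSL4 libraries and 429.7, 211 and 414 CPM in shControl libraries. Its groups overlapped, with shControl replicate 2 at 0.501 of the mean of the other controls (log2 fold change 0.14, SE 0.19, edgeR adjusted p = 0.564), and the sign turned to -0.13 without shControl replicate 2.

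The H3K4 demethylases went both ways, with 2 higher (all genes 24.0%), 1 lower (all genes 23.1%) and 2 not called. Without shControl replicate 2, 1 was higher (all genes 22.7%) and 1 lower (all genes 22.3%). KDM1A (LSD1, chromosome 1, 23019443 to 23083689, GRCh38), the FAD-dependent demethylase of mono- and dimethylated H3K4, fell. It had 137, 133 and 129 CPM in shACSL4 libraries, against 172, 174 and 158 CPM in shControl libraries. The groups did not overlap, at 133 ± 4.26 CPM in shACSL4 and 168 ± 8.81 CPM in shControl libraries (SD, n = 3 each), a log2 fold change of -0.34 (SE 0.08, edgeR adjusted p = 0.00288). In shControl replicate 2 it was at 1.05 of the other controls, so the library that was low for most of these genes was not low for KDM1A. KDM1B (LSD2), its relative, had 97.7, 108 and 87.0 CPM in shACSL4 libraries and 88.5, 80.7 and 80.1 CPM in shControl libraries. Its groups overlapped in 1 library each, and its log2 fold change of 0.23 was not called (SE 0.09, edgeR adjusted p = 0.0502). It passed with library size alone (adjusted p = 0.00442), the filter for 50 counts or more (0.0356), the replicate block (0.0472), relative to neighbouring genes (0.0471) and without shACSL4 replicate 3 (0.0132).

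KDM5A, KDM5B and KDM5C are JmjC demethylases of di- and trimethylated H3K4. KDM5B had 59.9, 55.4 and 52.5 CPM in shACSL4 libraries, against 43.9, 28.8 and 43.6 CPM in shControl libraries. The groups did not overlap, and the log2 fold change was 0.53 (SE 0.13, edgeR adjusted p = 0.00281) and 0.35 without shControl replicate 2, still called. KDM5A had 149.7, 147 and 122 CPM in shACSL4 libraries and 126, 95.7 and 119 CPM in shControl libraries. It was called (log2 fold change 0.29, SE 0.11, edgeR adjusted p = 0.0343) although shACSL4 replicate 3 lay below shControl replicate 1, and 4 of the 6 fits without a library lost the call, with adjusted p up to 0.139. Its log2 fold change was 0.18 without shControl replicate 2. A window of 51 tested genes on the chromosome, KDM5A among them, had a median of 0.23. Relative to this median KDM5A stood at 0.06 and was not called (adjusted p = 0.703). KDM5C, at 296 to 355 CPM in shACSL4 libraries and 298 to 355 CPM in shControl libraries, had a log2 fold change of -0.01 with a 95% interval of -0.21 to 0.19.

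EZH2 rose and EZH1 was not called. These are the alternative catalytic subunits of Polycomb repressive complex 2 (PRC2), which methylates H3K27, EZH2 being typical of dividing cells. EZH2 (chromosome 7, 148807383 to 148884321, GRCh38) had 87.2, 91.2 and 93.7 CPM in shACSL4 libraries, against 73.2, 67.2 and 74.2 CPM in shControl libraries. All shACSL4 libraries were higher, at 90.7 ± 3.33 CPM in shACSL4 and 71.5 ± 3.76 CPM in shControl libraries (SD, n = 3 each), a log2 fold change of 0.34 (SE 0.08, edgeR adjusted p = 0.00291). The window of 51 tested genes that holds EZH2 had a median log2 fold change of 0.21. Relative to this median EZH2 stood at 0.14 and was not called (adjusted p = 0.207). EZH1 had 43.6, 42.1 and 48.2 CPM in shACSL4 libraries and 43.2, 40.9 and 53.6 CPM in shControl libraries. Its groups overlapped fully, with a log2 fold change of -0.04 (95% interval -0.26 to 0.19, edgeR adjusted p = 0.786).

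The 3 demethylases of H3K27 were all called higher (all genes 24.0%), and 2 of them without shControl replicate 2 (all genes 22.7%). KDM6A (UTX, chromosome X, 44873177 to 45112602, GRCh38) had 78.2, 76.6 and 69.3 CPM in shACSL4 libraries, against 55.2, 47.4 and 56.0 CPM in shControl libraries. The groups lay well apart, with a log2 fold change of 0.50 (SE 0.09, edgeR adjusted p = 0.000312). KDM7A, which also acts on dimethylated H3K9, had 137, 137 and 120.3 CPM in shACSL4 libraries and 109, 70.6 and 103 CPM in shControl libraries (log2 fold change 0.48, SE 0.13, edgeR adjusted p = 0.00491), again with the lowest value in shControl replicate 2. Without that library its log2 fold change was 0.30, still called. KDM6B (JMJD3) had 102, 119.7 and 104 CPM in shACSL4 libraries and 93.9, 79.0 and 99.5 CPM in shControl libraries, close to each other but not overlapping (log2 fold change 0.26, SE 0.10, edgeR adjusted p = 0.0386). Its call ended without shACSL4 replicate 2 (adjusted p = 0.197), without shControl replicate 1 (0.0693) and without shControl replicate 2, where the log2 fold change was 0.17 (0.131).

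**Figure D3:**
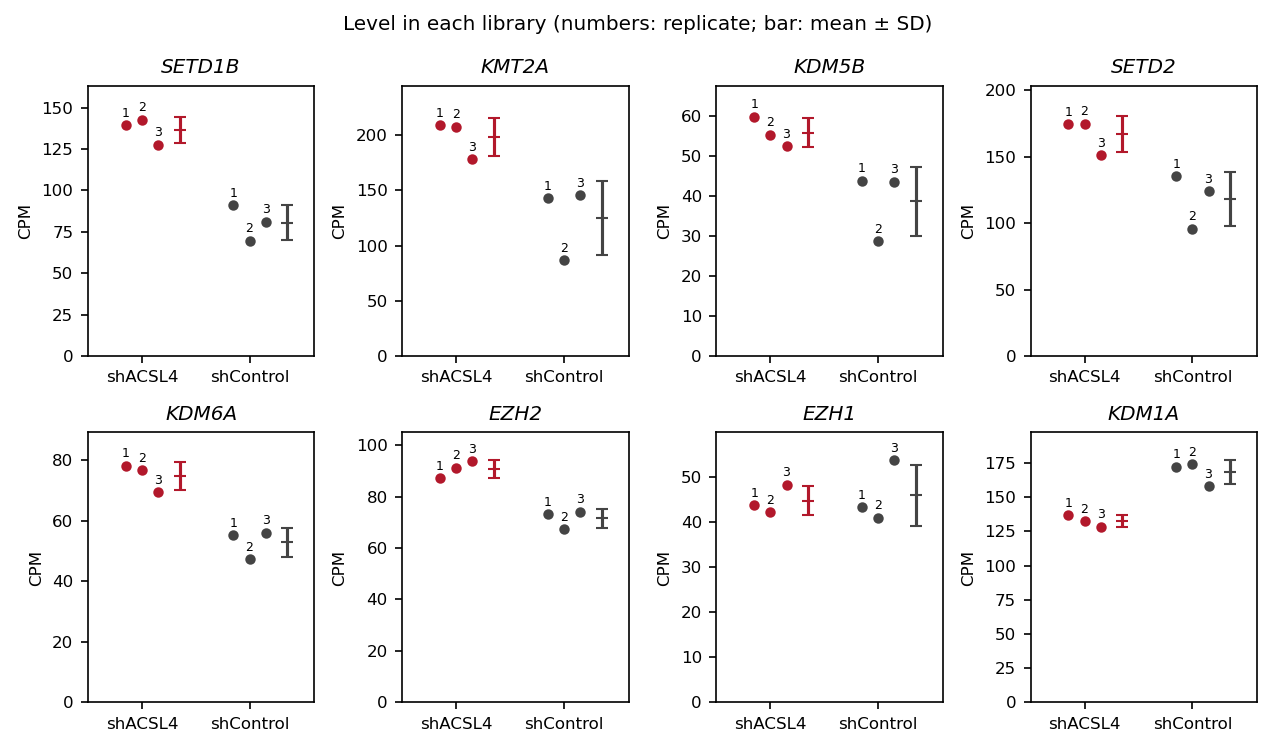
CPM (y axis, from 0) of SETD1B, KMT2A, KDM5B, SETD2, KDM6A, EZH2, EZH1 and KDM1A in shACSL4 (left) and shControl (right) libraries. Points are libraries with their replicate number and bars are mean ± SD over 3. SETD1B, KMT2A, KDM5B, KDM6A, SETD2, EZH2 and KDM1A separate the groups, while EZH1 overlaps between 40.9 and 53.6 CPM.

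Of the 6 H3K9 methyltransferases 2 rose (all genes 24.0%), SETDB2 and EHMT1. SETDB2, a relative of SETDB1, had 15.6, 15.6 and 14.0 CPM in shACSL4 libraries, against 9.34, 11.2 and 12.2 CPM in shControl libraries (log2 fold change 0.47, SE 0.14, edgeR adjusted p = 0.00935). It did not overlap between the groups and was lost without shControl replicate 1 (adjusted p = 0.0633). EHMT1 (GLP) had 129, 135 and 135 CPM in shACSL4 libraries and 112, 109 and 117 CPM in shControl libraries (log2 fold change 0.24, SE 0.08, edgeR adjusted p = 0.0233), with no overlap. This call ended without shACSL4 replicate 2 (adjusted p = 0.0816), without shControl replicate 1 (0.0852), with no filter beyond 1 count (0.0755) and relative to neighbouring genes (0.0837). SETDB1, which silences retroelements together with TRIM28, had 48.2, 45.7 and 47.3 CPM in shACSL4 libraries and 40.0, 41.1 and 42.8 CPM in shControl libraries. All shACSL4 libraries were above all shControl libraries, but the log2 fold change of 0.19 (SE 0.09) was not called (edgeR adjusted p = 0.0836), except with library size alone (adjusted p = 0.0105). EHMT2 (G9a), the partner of EHMT1 in a dimer, averaged 84.2 ± 2.84 CPM in shACSL4 and 86.8 ± 4.45 CPM in shControl libraries (SD, n = 3 each). SUV39H1 and SUV39H2, which trimethylate H3K9 in heterochromatin, had log2 fold changes of 0.09 and 0.16 and were not called, although SUV39H2 passed with library size alone (adjusted p = 0.0310).

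Among the 5 H3K9 demethylases tested KDM4A alone was called (all genes 47.2%), and 0 were called without shControl replicate 2 (all genes 45.0%). It had 37.8, 42.9 and 34.9 CPM in shACSL4 libraries and 34.5, 31.5 and 30.5 CPM in shControl libraries, groups that nearly touched (log2 fold change 0.26, SE 0.10, edgeR adjusted p = 0.0442). It was lost in 4 of the 6 fits without a library (adjusted p up to 0.234), with DESeq2 (0.0763), with median-of-ratios scaling (0.0521) and with no filter beyond 1 count (0.101). Relative to neighbouring genes KDM4A stood at 0.54 and was called. KDM4B, KDM4C and KDM3B had log2 fold changes of -0.03, 0.07 and -0.12 and were not called. Relative to neighbouring genes KDM4B stood at -0.27 and was called lower (adjusted p = 0.0165). KDM4D had 0.898, 1.31 and 0.886 CPM in shACSL4 libraries and 1.37, 0.377 and 0.269 CPM in shControl libraries, near the 0.171 to 0.202 CPM that 3 counts are worth here, and its log2 fold change of 0.59 (SE 0.51) was not called. Leaving out a library moved it between 0.22 and 1.65, and KDM4D was called at 1.65 without shControl replicate 1 (adjusted p = 0.0281). KDM4D, KDM4E and KDM4F lie together on chromosome 11, and 2 of these 3 had no read.

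SETD2, the enzyme that trimethylates H3K36 behind RNA polymerase II, rose. It had 175, 175 and 151 CPM in shACSL4 libraries, against 135, 95.8 and 124 CPM in shControl libraries (chromosome 3, 47016429 to 47163967, GRCh38). The groups did not overlap, at 167 ± 13.7 CPM in shACSL4 and 118 ± 20.3 CPM in shControl libraries (SD, n = 3 each), a log2 fold change of 0.50 (SE 0.11, edgeR adjusted p = 0.00159). The window of 51 tested genes that holds SETD2 had a median of 0.25, and relative to this median SETD2 stood at 0.24 with an adjusted p of 0.0909. KDM2B and KDM2A, demethylases of H3K36 that bind unmethylated CpG, differed. KDM2B had 80.5, 84.4 and 70.7 CPM in shACSL4 libraries, against 99.5, 95.3 and 87.9 CPM in shControl libraries, all lower (log2 fold change -0.26, SE 0.09, edgeR adjusted p = 0.0251). The call ended without shACSL4 replicate 1 (adjusted p = 0.0557), without shACSL4 replicate 3 (0.107), without shControl replicate 1 (0.108), with library size alone (0.168) and when KDM2B was taken relative to its neighbours (0.0750). KDM2A had 229, 232 and 184 CPM in shACSL4 libraries and 196, 166 and 189.7 CPM in shControl libraries, where shACSL4 replicate 3 lay inside the control range (log2 fold change 0.23, edgeR adjusted p = 0.0779). It passed with library size alone (adjusted p = 0.0101) and without shACSL4 replicate 3 (0.0109).

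None of the 3 H4K20 methyltransferases was called in edgeR's quasi-likelihood test (all genes 47.2%). There 0 had an unadjusted p under 0.05, and 0 had an adjusted one in DESeq2 or limma-voom. KMT5A, which places the first methyl group, averaged 84.7 ± 2.78 CPM in shACSL4 and 84.7 ± 4.32 CPM in shControl libraries (SD, n = 3 each), with a 95% interval of the log2 fold change of -0.18 to 0.17. KMT5B and KMT5C, which add further methyl groups, had log2 fold changes of -0.08 and 0.07.

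The other 8 genes act on other proteins or have less settled histone roles, and 3 of them rose (all genes 24.0%). Without shControl replicate 2, 2 of these 8 rose (all genes 22.7%) and SETD5 fell. KDM8, a JmjC oxygenase, had the largest fold change of the 41 genes and few counts, a mean of 45.7 per library. It had 4.10, 3.42 and 3.54 CPM in shACSL4 libraries, against 1.55, 1.76 and 2.69 CPM in shControl libraries. All shACSL4 libraries were higher (log2 fold change 0.89, SE 0.27, edgeR adjusted p = 0.0117), and the call ended without shACSL4 replicate 1 (adjusted p = 0.0502) and without shControl replicate 1 (0.0582). KMT2E (MLL5), which reads H3K4 trimethylation and has no known methyltransferase activity on histones, had 159.7, 159 and 134 CPM in shACSL4 libraries and 132, 97.2 and 128 CPM in shControl libraries (log2 fold change 0.34, SE 0.11, edgeR adjusted p = 0.0174). Its groups did not overlap but lay close, and the call ended without shACSL4 replicate 1 (adjusted p = 0.0737), without shACSL4 replicate 2 (0.0723) and without shControl replicate 2, where the log2 fold change was 0.21 (0.0605). SETD4 averaged 20.3 ± 3.13 CPM in shACSL4 and 15.1 ± 1.24 CPM in shControl libraries (SD, n = 3 each), a log2 fold change of 0.43 (edgeR adjusted p = 0.0127) that was lost without shACSL4 replicate 3 (0.0703). SETD3, which methylates a histidine of actin rather than a histone, was lower in every shACSL4 library, at 156, 146 and 149.7 CPM against 170.3, 174 and 164 CPM in shControl libraries, and was not called (log2 fold change -0.17, edgeR adjusted p = 0.0938). SETD5, SETD6, SETD7 and SETD9 had log2 fold changes of -0.13, 0.20, -0.03 and 0.19 and were not called, but SETD6 was called at 0.36 without shControl replicate 3 (adjusted p = 0.0349).

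**Figure D4:**
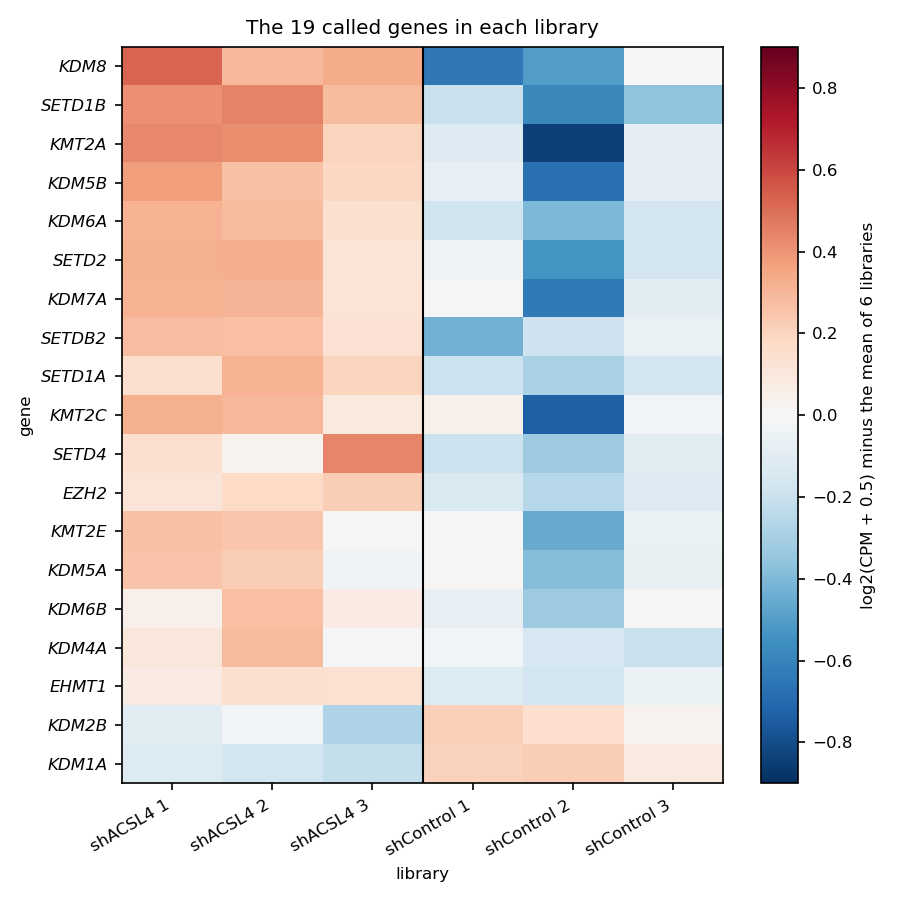
Log2(CPM + 0.5) minus the mean of the 6 libraries (colour) for the 19 called genes (rows) in the 3 shACSL4 libraries (left of the line) and the 3 shControl libraries (right). The shControl 2 column is the darkest blue for most of the 17 higher genes, and the order is turned in the rows of KDM2B and KDM1A.

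Levels between genes were compared per length, in the authors' FPKM. For the genes with exon overlaps described below, the deposited length equals all annotated exon bases of the gene together. That can exceed the length of a transcript, so the order of the genes may also depend on the annotation. Over the 6 libraries KDM5C had the highest mean level of the 43 genes at 37.0 FPKM, followed by SETD3 at 30.5, KDM1A at 27.4 and KDM3B at 24.3. The lowest above 0 were KDM4D at 0.283 FPKM and KDM8 at 0.695 FPKM. EZH2 stood at 19.7 FPKM in shACSL4 and 15.7 FPKM in shControl libraries, and EZH1 at 6.29 and 6.52 FPKM. KDM1A stood at 24.0 FPKM in shACSL4 and 30.7 FPKM in shControl libraries, and KDM1B at 17.2 and 14.8 FPKM.

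Related genes with the same substrate were set against each other within each library, as the log2 ratio of their CPM. This ratio does not depend on the scaling of the library, but a trend with gene length, as in shControl replicate 2, can remain in it. Of 12 pairs, 11 had ratios that did not overlap between the groups. Among all genes 55.1% did not overlap in their levels, but that share is for single genes, and none was computed for the ratios of other pairs, so nothing is read from the count. With 3 libraries against 3 the smallest 2-sided exact permutation p is 0.1, so no pair could pass the threshold, and the adjusted value over the 12 pairs was 0.109 at best. The balance between KDM1A and KDM1B moved the most. Its log2 ratio was 0.49, 0.29 and 0.56 in shACSL4 replicates 1, 2 and 3, against 0.96, 1.11 and 0.98 in shControl replicates 1, 2 and 3, a difference of -0.57 (exact permutation p = 0.1). KDM1A exceeded KDM1B in every library and by less in each shACSL4 library.

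The log2 ratio of EZH2 to EZH1 was 1.00, 1.11 and 0.96 in shACSL4 libraries and 0.76, 0.72 and 0.47 in shControl libraries, a difference of 0.38 (exact permutation p = 0.1). That of KDM2A to KDM2B was 1.51, 1.46 and 1.38 in shACSL4 libraries and 0.98, 0.80 and 1.11 in shControl libraries, a difference of 0.49 (exact permutation p = 0.1). In both pairs the first gene took a larger share in every shACSL4 library. The ratio of KMT2A to KMT2B differed by 0.45 and that of KMT2C to KMT2D by 0.28, with no overlap. SETD1A to SETD1B differed by -0.33, SETDB1 to SETDB2 by -0.29, EHMT2 to EHMT1 by -0.28, KDM5A to KDM5B by -0.26 and KMT5B to KMT5C by -0.15, and KDM6A to KDM6B by 0.24, again with no overlap. SUV39H1 to SUV39H2 differed by -0.08 and overlapped (exact permutation p = 0.5). When any library was left out, the KDM1A pair differed by -0.63 to -0.49 and the EZH2 pair by 0.29 to 0.43. All 12 differences kept their sign, which for the 11 pairs without overlap could not come out otherwise. Without shControl replicate 2, KMT2A to KMT2B differed by 0.32, KMT2C to KMT2D by 0.36 and KDM5A to KDM5B by -0.18.

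**Figure D5:**
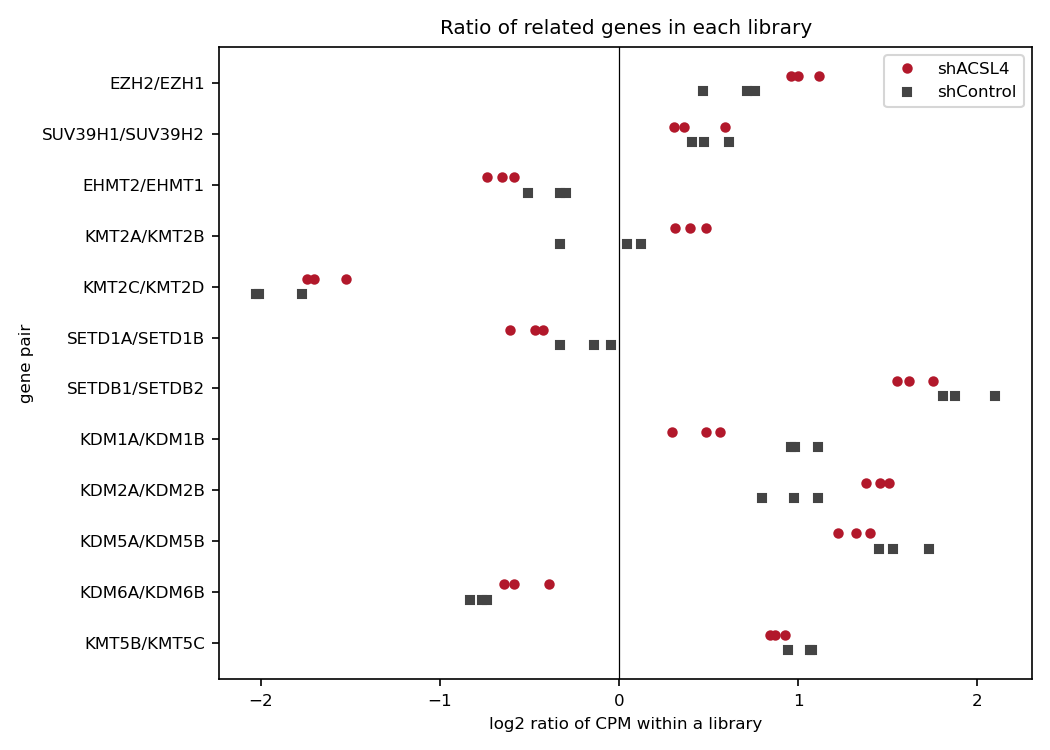
Log2 ratio of CPM of 2 related genes (x axis) in each shACSL4 library (circles, upper) and shControl library (squares, lower) for 12 pairs (rows). Circles and squares separate in 11 rows, by -0.57 for KDM1A/KDM1B and by 0.38 for EZH2/EZH1, and mix in the row of SUV39H1/SUV39H2.

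The partners of these enzymes were counted in lists written from knowledge of the pathways, with 92 genes in 7 lists. Of the genes of PRC2 other than its catalytic subunits, 7 of 10 tested fell and 0 rose in edgeR (0 also at an unadjusted p under 0.05 and in DESeq2), against 23.1% lower and 24.0% higher over all genes, with a median log2 fold change of -0.41. EZH2 itself rose, and 7 of the subunits it works with fell. The smallest adjusted p values were those of MTF2 and PHF1, which bring the complex to chromatin. MTF2 had 26.8, 22.6 and 27.1 CPM in shACSL4 libraries, against 41.9, 41.1 and 45.7 CPM in shControl libraries (log2 fold change -0.75, SE 0.10, edgeR adjusted p = 1.49e-05). PHF1 had 19.7, 17.0 and 20.1 CPM in shACSL4 libraries, against 31.2, 33.0 and 33.2 CPM in shControl libraries (log2 fold change -0.78, SE 0.11, edgeR adjusted p = 1.62e-05). The core subunits SUZ12 and EED and the histone chaperones RBBP4 and RBBP7, which other complexes share, had log2 fold changes of -0.39, -0.43, -0.52 and -0.36, and AEBP2 had -0.44. All 7 were called in each of the 6 fits without a library, and 4 of them against a fold of 1.2. JARID2, PHF19 and EPOP were not called (0.07, 0.05 and -0.10), and EZHIP had no read.

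Of 15 partner subunits of the KMT2 and SETD1 complexes (COMPASS), 5 rose (all genes 24.0%) and 1 fell (all genes 23.1%), with a median of 0.02. Without shControl replicate 2, 4 rose (all genes 22.7%) and 2 fell (all genes 22.3%). NCOA6, a subunit of the KMT2C and KMT2D complexes, had 135, 138 and 108 CPM in shACSL4 libraries and 78.2, 62.8 and 76.6 CPM in shControl libraries (log2 fold change 0.81, SE 0.11, edgeR adjusted p = 1.26e-05). HCFC2 averaged 9.94 ± 0.669 CPM in shACSL4 and 4.72 ± 0.872 CPM in shControl libraries (SD, n = 3 each, log2 fold change 1.08, edgeR adjusted p = 8.29e-05). The core subunits shared by all these complexes were not called higher. WDR5, RBBP5 and ASH2L had log2 fold changes of -0.15, -0.14 and -0.07 and were not called, and DPY30 fell by 0.40 (edgeR adjusted p = 0.00461). The count of 5 was 3 without shACSL4 replicate 1, without shACSL4 replicate 3, without shControl replicate 3, with DESeq2 and with no filter on low counts.

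Of 12 partners of KDM1A in the CoREST complex and its relatives, 2 rose (all genes 24.0%) and 5 fell (all genes 23.1%), with a median of -0.17. RCOR3, a CoREST protein, had 29.6, 28.9 and 30.8 CPM in shACSL4 libraries and 18.4, 18.3 and 19.8 CPM in shControl libraries (log2 fold change 0.66, SE 0.10, edgeR adjusted p = 6.11e-05). ZMYM3 had 105, 98.5 and 97.4 CPM in shACSL4 libraries and 139.7, 121 and 154 CPM in shControl libraries (log2 fold change -0.46, SE 0.09, edgeR adjusted p = 0.000701). The histone deacetylases HDAC1 and HDAC2 had log2 fold changes of -0.22 and -0.29 and were called lower, each in 3 of the 6 fits without a library. The 5 falls were 2 without shACSL4 replicate 2 and with library size alone, and 3 without shACSL4 replicate 1, without shACSL4 replicate 3 and without shControl replicate 1. The 2 rises, RCOR3 and RCOR2, were 1 without shACSL4 replicate 2, without shACSL4 replicate 3, without shControl replicate 3 and among genes averaging 50 counts or more. RCOR2, with a mean of 25.5 counts, was the gene lost.

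Partners and readers of H3K9 methylation went both ways, with 6 of 14 higher (all genes 24.0%) and 5 lower (all genes 23.1%). Without shControl replicate 2, 5 were higher (all genes 22.7%) and 4 lower (all genes 22.3%). UHRF1, which couples H3K9 methylation to DNA methylation, had a log2 fold change of 0.62 (SE 0.09, edgeR adjusted p = 2.66e-05), and WIZ, a zinc finger partner of EHMT1 and EHMT2, of 0.55 (SE 0.08, edgeR adjusted p = 4.79e-05). The heterochromatin proteins that bind this mark split. CBX3 and CBX1 were lower (log2 fold changes -0.59 and -0.51, edgeR adjusted p = 7.71e-05 and 0.000106). CBX5 was higher at 0.27 (edgeR adjusted p = 0.0357), a call that held in 2 of the 6 fits without a library. The 5 falls were 3 without shACSL4 replicate 2, without shControl replicate 3 and with library size alone.

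Among lysine methyltransferases with other names, 3 of 12 tested rose (all genes 24.0%) and 0 fell (all genes 23.1%) in edgeR. There 3 were lower at an unadjusted p under 0.05, and 0 fell in DESeq2. MECOM, a zinc finger transcription factor of the PRDM family, averaged 121 ± 9.72 CPM in shACSL4 and 52.5 ± 2.08 CPM in shControl libraries (SD, n = 3 each, log2 fold change 1.204, edgeR adjusted p = 1.51e-08). NSD2, which dimethylates H3K36, averaged 361 ± 34.3 CPM in shACSL4 and 259.5 ± 16.9 CPM in shControl libraries (log2 fold change 0.48, edgeR adjusted p = 0.00055). SETMAR was listed at 0 in every library. The count of rises was 5 without shACSL4 replicate 3 and 6 with library size alone, and 1 gene was called lower without shACSL4 replicate 2.

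Among other JmjC proteins 7 of 13 rose (all genes 24.0%) and 1 fell (all genes 23.1%). Without shControl replicate 2, 5 rose (all genes 22.7%) and 2 fell (all genes 22.3%). Without shACSL4 replicate 2, 4 rose, and 3121 of all genes were then higher, against 3769 with all libraries. JMJD6 had 13.7, 16.5 and 16.4 CPM in shACSL4 libraries, against 35.8, 37.6 and 34.2 CPM in shControl libraries (log2 fold change -1.21, SE 0.11, edgeR adjusted p = 1.94e-07), a larger fall than that of any of the 41 genes. RIOX2, a ribosomal oxygenase, rose (log2 fold change 0.79, SE 0.10, edgeR adjusted p = 4.94e-06). Of 14 tested genes for the supply of methyl groups, 5 rose (all genes 24.0%) and 3 fell (all genes 23.1%). MTAP, which salvages methionine from methylthioadenosine, was lower (log2 fold change -0.65, SE 0.10, edgeR adjusted p = 6.2e-05). MAT2A, the enzyme that makes S-adenosylmethionine, was not called (log2 fold change 0.13, edgeR adjusted p = 0.386).

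Reads of genes that overlap on the genome cannot be told apart, since the use of strand in the counting is not given in the sources used here. In GENCODE release 29, 19 of the 43 genes share exon bases with another gene, and in 7 of them the other gene had at least 10% of their counts. These were SETD6 with CNOT1 (at 2602% of the count of SETD6), SETDB1 with CERS2 (227%), KDM2B with RNF34 (73.4%) and KMT2E with SRPK2 (60.4%). Lower shares were those of SUV39H2 with DCLRE1C (60.2%), KDM4C with AL354707.1 (23.4%) and KDM5A with CCDC77 (12.1%). Among these partners SRPK2 was lower (log2 fold change -0.50) and DCLRE1C higher (1.05), while KMT2E was higher and SUV39H2 not called. The processed pseudogenes EZH2P1, SETD6P1 and SETD8P1 had means of 0, 5.67 and 13.7 counts. In the authors' deposited table all 41 fold changes had the sign given here. Of the 19 genes called here 16 passed an adjusted p of 0.05, KDM4A, KDM6B and KMT2C being the other 3. The authors' log2 fold changes come from the same libraries and differed by at most 0.0142, so this is no independent check.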

How the data were processed

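Gene expression was measured by RNA-seq in 3 shACSL4 and 3 shControl libraries of T84 cells, made from total RNA after removal of ribosomal RNA, per the labels' protocols. The submitters' processing notes name HISAT2, CASAVA and build GRCh38 (hg38), and the sources used here do not name the counting tool. Per the file headers, the deposited table gives each library's raw counts by gene and the FPKM values that the authors computed. The authors' group mean signal (normalized counts averaged by group, per the file headers) was not used. It also holds the authors' log2 fold changes and adjusted p-values, which were used for 1 comparison. The control columns carry the prefix NC and were taken as shControl, the only other group, and matched by number.

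Genes were kept by filterByExpr, libraries were scaled by TMM, and the test was the quasi-likelihood F test of edgeR 4.0.16 with R 4.3.3 (limma 3.58.1), on group alone. P-values were adjusted by Benjamini-Hochberg over all genes tested, and fold changes are shACSL4 over shControl. The 95% intervals of fold changes use the test's total degrees of freedom, the residual ones plus those that edgeR adds from the spread over all genes. Nothing in the labels says whether replicate libraries stem from different cultures, and the p-values reflect only the spread among these samples, and that may be technical. At this depth 3 counts are worth 0.171 to 0.202 CPM, and this limit covers counting error only, PCR reads without molecular identifiers not being independent molecules. Counts were simulated for the 15694 genes of this comparison, with 50 genes changed at each fold and all others unchanged. Of genes changed by 1.25 times 14% were recovered, 46% of those changed by 1.5 times, 72% by 2 times and 92% by 4 times. Of the calls 5.08% were false. In the data 7400 genes were called, far more than were changed here, so these rates do not give the share of changes found in this comparison.

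The genes, the 7 partner lists and the tests were chosen with earlier results of these data known. Values per library were to be given for called genes averaging 50 counts or more with an absolute log2 fold change of at least 0.5, and for EZH1, EZH2, KDM1A, SETDB1, SETD2 and KDM6A. Each partner list was to be shown by the 2 called genes of lowest adjusted p. A gene that this rule names is not reported here. Other genes with values per library, and other named partners, were chosen after their values were seen. All 117 symbols of the partner and marker lists were matched, 2 of them by gene identifier. Pair ratios were tested by a 2-sided exact permutation test. Alternatives were other scalings (library size alone, median-of-ratios), other filters (any gene with 1 count, or genes averaging 50 counts or more), other tools (limma-voom, DESeq2 1.42.0), a fold of 1.2 as the null, a block for the replicate number, and each library left out. Fold changes were also taken relative to the median of a window of 51 tested genes in chromosome order, with the gene itself among them. The p-values of that setting leave out the error of this median. Leaving out libraries for the pair ratios was added after seeing the data.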

Additional observations from a re-analysis of the deposited data

How the results depend on the processing

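The number of genes called higher (17) lay between 14 and 22 with DESeq2, median-of-ratios scaling, library size alone, both other filters, limma-voom, the replicate block and relative to neighbouring genes. Against a fold of 1.2 it was 7, with 0 lower, 2441 of all genes higher and 2209 lower, and 16 of the partner genes higher and 12 lower, because that test asks for more than a change. Leaving out a library gave 11 to 19 higher and 1 to 3 lower. Over all genes the same fits gave 3121 to 3661 higher and 3001 to 3590 lower, against 3769 and 3631 with all libraries. With library size alone 1 was lower and the median log2 fold change was 0.34. The replicate number as a block gave 19 higher and 2 lower, adding KMT2B and KDM1B, and changed no other call among the 41 genes. The labels give the numbers no other meaning. Deviations of same-numbered libraries correlated at 0.06, -0.001 and 0.008 over genes, and not every library correlated best with its own number, so the numbers were not taken as a pairing. No pair ratio was refitted with the replicate block. The partner lists were not run relative to neighbouring genes.

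Changes of sign were limited to genes that were not called. Relative to neighbouring genes they were KMT2B (-0.0143), SUV39H2 (-0.257), KMT5C (-0.164), EZH1 (0.113) and EHMT2 (0.0538). With library size alone, which shifts the median of all genes by 0.12, they were KMT5A (0.118), KDM5C (0.107), SETD7 (0.0816), KDM4B (0.0840), EZH1 (0.0781), EHMT2 (0.0750) and KMT5B (0.0422). With a mean of at least 50 counts they were KMT5A (0.0105) and KDM5C (0.00241). Without a library KMT5A ranged from -0.0394 to 0.0356, KDM5C from -0.0750 to 0.0567, SETD7 from -0.131 to 0.0319, KDM4B from -0.0767 to 0.0183, EZH1 from -0.117 to 0.0722 and KMT2D from -0.126 to 0.307. The cause of these changes was not tested. What depth limits for genes with few counts such as KDM4D was not tested.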
